A study of Hordeum vulgare with 4 samples.

Results

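Among the 61598 genes assembled from messenger RNA of barley (Hordeum vulgare) callus, 118 were counted in both cultivars and lay at least 3 times higher in both libraries of D91 than in either library of Golden Promise. They were selected on their counts: at least 10 in each of the 4 libraries, and a lower D91 value at least 3 times the higher Golden Promise value as CPM (counts scaled to the library total). The count minimum alone left 13714 genes, of which the 118 were 0.860%. The same rule with the cultivars exchanged gave 147 genes. Because these values chose the genes, the difference between cultivars is described below and not tested.

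The libraries came from callus of the cultivars Golden Promise (GP) and DWR91 (D91), 2 libraries each, taken at an age of 31 days. All calli had spent 28 days in the dark on a medium named BCIM and 3 days in indirect light on one named BRM, so the comparison holds the schedule constant and varies the cultivar. The series contrasts cultivars that differ in regeneration in culture, and the labels used here do not state which of them regenerates better. No label ties a replicate to a separate culture, so the spread between replicates may be technical, and each library is a bulk sample of callus. The standard errors and p-values below may then measure technical spread only. A difference between cultures that goes with the cultivar cannot be told apart from it.

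Callus is a mass of dividing plant cells that forms on explants under auxin and can give rise to shoots when moved to a regeneration medium. On transfer to light its plastids can turn into chloroplasts, and greening callus is commonly chosen for shoot formation in cereals. Golden Promise is a cultivar widely used for barley transformation. The files give assembly identifiers with no gene names, and 0 of the 61598 identifiers matched the 58438 genes of the barley RefSeq table, so the genes are described by their levels, isoforms and loci, no marker of greening, division or another cell type could be examined, and 2 identifiers are printed.

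The libraries held between 1736829 and 3442776 assigned counts, with D91 replicate 2 the deepest. The members rested on fewer counts in GP than in D91. The lowest GP count of a member ranged from 10 to 2123 with a median of 25, and 45 members had under 20 counts in a GP library. The lower D91 count ranged from 37 to 12089 with a median of 158.5. An exact 95% interval of the ratio between the lower D91 and the higher GP library, which covers counting error only because reads are not independent molecules, had its lower bound at 3 or above for 43 of the 118 members and at 2 or above for 109. The lowest such bound was 1.65. The same ratio chose the members, which favours high bounds, so these intervals here and below describe the depth and do not test the ratio.

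Together the members took 2.91% and 2.76% of all counts in D91 replicates 1 and 2, and 0.600% and 0.478% in GP replicates 1 and 2. The mean share was 2.83% ± 0.108 for D91 and 0.539% ± 0.0865 for GP (SD over 2 libraries). The 3 members with most D91 counts made up 42.4% and 38.95% of these counts for D91 and 44.4% and 39.9% for GP. Without those 3, the other members still took 1.68% of each D91 library and 0.334% and 0.287% of the GP libraries. The rule requires each member to be higher in D91, so these shares give the weight of the 3 genes and no more. In bulk tissue, fewer cells of a type and less RNA per cell cannot be told apart.

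Between the lower D91 and the higher GP library the ratio ran from 3.00 to 10.01, with a median of 3.72. It lay under 3.5 for 49 members, at 4 or above for 47, at 5 or above for 23, at 8 or above for 5 and at 10 or above for 1. Taken between cultivar means, the ratio had a median of 4.92 and reached 18.8.

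**Figure D1:**
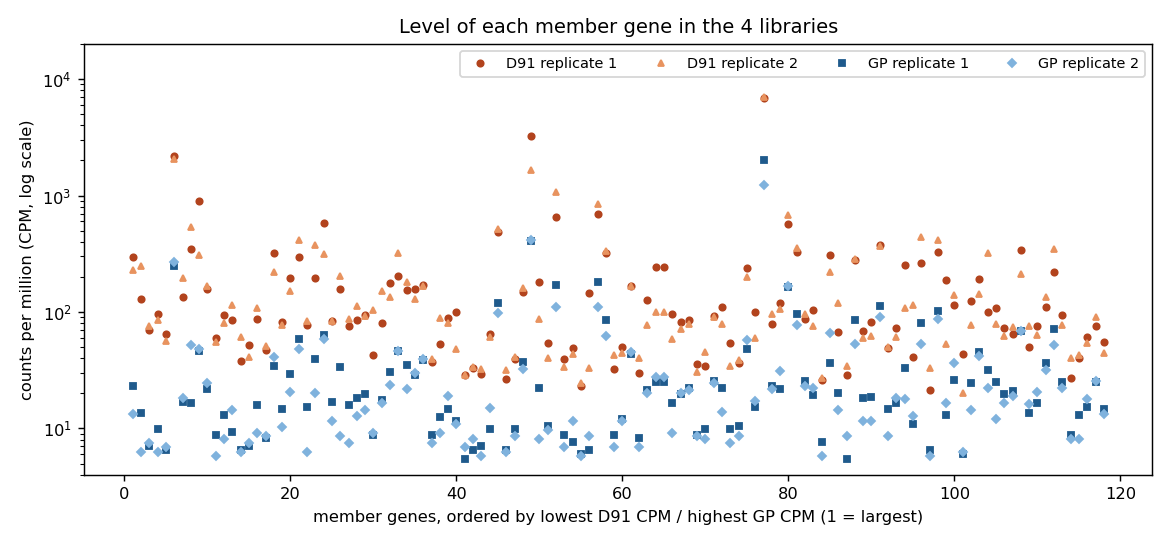
Level of the 118 members in each library, in CPM on a log axis, ordered along the horizontal axis by the ratio that chose them. Each symbol is 1 library, and in every column both D91 symbols lie above both GP symbols, as the rule requires, at levels that span from under 10 CPM in GP to 7012 CPM in D91.

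At the threshold, the member with the smallest ratio (3.00) stood at 55.6 and 44.4 CPM in D91 and at 14.8 and 13.2 CPM in GP. The gene just outside it stood at 85.5 and 138 CPM in D91 and at 28.5 and 21.3 CPM in GP, and its ratio also rounded to 3.00. The next members inside had ratios of 3.01 and 3.03 and the next genes outside 2.99 and 2.99. A further 108 genes lay between 2.5 and 3, so the line does not separate a distinct group. Another 463 genes were at least 3 times higher in D91 with 10 or more counts in both D91 libraries but fell under 10 counts in a GP library, and 171 of them had 0 counts in both GP libraries.

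The largest ratio belonged to TRINITY_GG_33644_c0_g1, a gene of 2 assembled isoforms. It was counted at 299 and 230.3 CPM in D91 replicates 1 and 2 and at 23.0 and 13.2 CPM in GP replicates 1 and 2, which corresponds to 522, 793, 42 and 23 counts. D91 replicate 1 was the highest library and GP replicate 2 the lowest, and the cultivars were 10.01-fold apart at their closest libraries (exact 95% counting interval 7.34 to 14.0). The D91 mean was 265 ± 48.9 CPM and the GP mean 18.1 ± 6.91 CPM (SD over 2 libraries), and the edgeR log2 fold change (D91 minus GP) was 3.96 with a standard error of 0.32. At the level scaled for transcript length (the deposited TMM-scaled TPM) it was the member in place 29 in D91, so the largest ratio did not belong to one of the most abundant members.

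The next places by ratio were held by genes of low GP level. The second member stood at 128.5 and 248 CPM in D91 against 13.7 and 6.33 in GP. The third stood at 69.4 and 76.4 CPM in D91 against 7.12 and 7.49 in GP. These 2 genes differ in their spread, since the D91 libraries of the second were nearly 2-fold apart while both pairs of the third lay close together. The fourth stood at 96.4 and 84.8 CPM against 9.86 and 6.33, and the fifth at 64.8 and 56.6 CPM against 6.58 and 6.91. All 5 had at most 42 counts in a GP library and 2 isoforms each. Their counting intervals, the narrowest from 7.34 to 14.0 and the widest from 5.22 to 17.9, overlap, so their order is not resolved by the depth.

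The member with the most D91 counts, TRINITY_GG_10435_c0_g1, was counted at 6935 and 7012 CPM in D91 and at 2013 and 1222 CPM in GP. The D91 libraries lay close together and GP replicate 1 was the nearer of the GP libraries, so the cultivars were 3.45-fold apart at their closest (exact 95% counting interval 3.32 to 3.58). The D91 mean was 6973 ± 55.0 CPM and the GP mean 1618 ± 559 CPM (SD over 2 libraries), with an edgeR log2 fold change of 2.21 and a standard error of 0.31. Without GP replicate 2 the log2 fold change was 1.90 and did not pass the threshold. Ranked per length among all 61598 genes, it took places 7 and 3 by D91 replicate and places 50 and 88 by GP replicate. It was thus among the most abundant transcripts of D91 callus and also abundant in GP.

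The second member by D91 counts stood at 3242 and 1654 CPM in D91 and at 405 and 418 CPM in GP, with the D91 libraries further apart than the GP libraries. The third stood at 2169 and 2072 CPM in D91 and at 249 and 268 CPM in GP, and it joined high abundance to a ratio of 7.72, the sixth largest of all members. Its SD was 68.4 CPM in D91 and 13.8 CPM in GP. The fourth stood at 650.5 and 1076 CPM in D91 and at 170 and 111 CPM in GP, and the fifth at 689 and 844 CPM against 181 and 110.0. None of these 5 genes had overlapping libraries, which the rule fixes.

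On the per-length scale the members lay high in D91 and near the middle in GP. Their median TMM-scaled TPM was 75.3 and 76.7 for the D91 replicates and 14.6 and 12.3 for the GP replicates. The median of all 13714 genes with at least 10 counts was 18.1, 19.3, 17.7 and 17.2 in the same order. In D91, 116 and 111 of the 118 members exceeded the median of those genes, and in GP 48 and 47 did. The highest 10% held 50 and 47 members in D91 and 14 and 11 in GP. The genes of the exchanged rule lay the other way, with medians of 9.33 and 6.34 in D91 and 53.5 and 48.2 in GP. The rule bears on all these levels, so they describe where the members sit and are no separate finding.

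**Figure D2:**
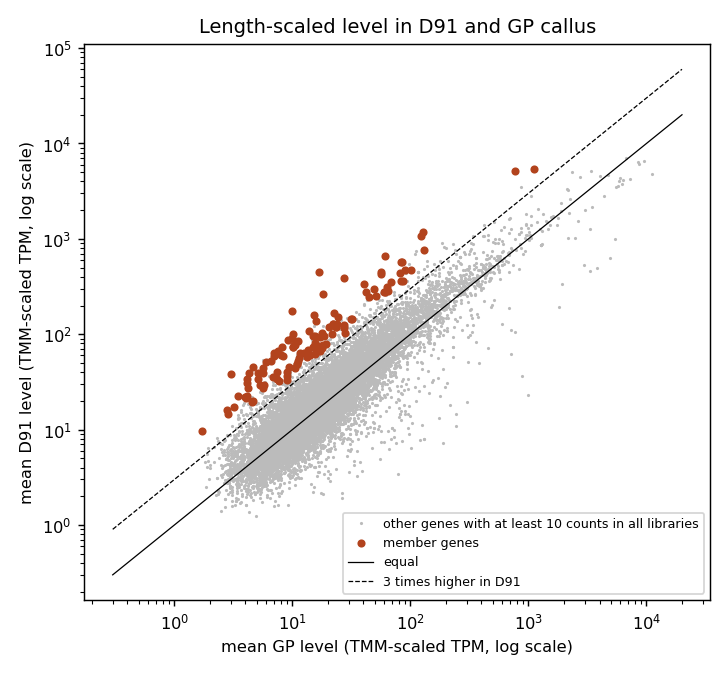
Mean level in GP (horizontal) and D91 (vertical) as the deposited TMM-scaled TPM, both on log axes, for the 118 members (large points) and the other genes with at least 10 counts in all 4 libraries (small points). The solid line marks equal levels and the dashed line a level 3 times higher in D91. Members span from 1.73 to 1124 in GP and from 9.63 to 5436 in D91.

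The gene with most D91 counts also had the highest mean TMM-scaled TPM of all members in both cultivars, 5436 ± 285 for D91 and 1124 ± 410.0 for GP (SD over 2 libraries). The next in D91, at 5180 ± 2251, overlapped it in its spread. The third stood at 1182 ± 18.3, below both at every library. Of the 10 members highest in D91, 8 were also among the 10 highest in GP, where a rule that keeps most ratios in a narrow range beside a wide range of levels favours such an overlap.

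In the deposited TMM-scaled TPM all 118 members were again at least 3 times higher in D91, with ratios from 3.22 to 12.6 and a median of 4.14. These values come from the same reads and are another scaling of them. The ratio was larger than in CPM for 112 of the 118 genes. By the deposited values 180 genes met the rule with the same count minimum, and by TMM-scaled library sizes 156 did. The deposited values differ from CPM in the library scaling and in the division by transcript length, and the part of each was not separated. Relative to TMM scaling, library totals moved the median log2 fold change over the tested genes from 0.00 to -0.12. All 118 members were included in these sets.

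Applied to 3 libraries, the rule gave 266 genes without D91 replicate 1, 239 without D91 replicate 2, 243 without GP replicate 1 and 186 without GP replicate 2, always including the 118. Leaving out a library can only relax the rule, so the sets had to grow.

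Within each cultivar the replicates of most members agreed. The higher library was a median of 1.22-fold above the lower one in D91 and 1.22-fold in GP, compared with 1.25-fold and 1.16-fold over the 13714 genes. Replicates lay over 2-fold apart for 12 members (10.2%) in D91 and for 7 members (5.93%) in GP, against 6.90% and 1.58% of the 13714 genes. In D91, 9 of the 12 were higher in replicate 1, and in GP 6 of the 7 were. Over all members D91 replicate 1 was the higher D91 library for 58 (49.2%, against 49.0% of the 13714 genes), and GP replicate 1 was the higher GP library for 75 (63.6%, against 50.2%). Of the 147 genes of the exchanged rule, GP replicate 1 was the higher for 94 and D91 replicate 1 for 100, so the lean to GP replicate 1 is not particular to the members. Replicates of those genes lay over 2-fold apart for 27.2% in D91 and 0.680% in GP. The rule uses the lower D91 library, the higher GP library and a count minimum, so it bears on these spreads and they are no separate finding. Low counts widen the spread, and their part in it was not tested.

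The widest spread in D91 was that of a member at 145 and 32.8 CPM in D91 and at 6.58 and 8.64 CPM in GP. Here D91 replicate 2 lay closer to GP than to the other D91 library in absolute level, and the standard error of its log2 fold change of 3.61 was the largest of all members, 0.78. The widest spread in GP was that of a member at 33.4 and 8.64 CPM in GP and at 159 and 203 CPM in D91. These 2 genes show that the rule admits genes whose replicates differ severalfold as long as the cultivars stay apart.

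In edgeR's quasi-likelihood test over 18035 genes, 10.1% (1815) were called higher in D91 at a Benjamini-Hochberg adjusted p under 0.05, and all 118 members were among them. The number called higher in D91 over all genes was 3769 without D91 replicate 1, 3308 without D91 replicate 2, 534 without GP replicate 1 and 311 without GP replicate 2. When a library is left out, its cultivar has 1 library and the spread comes from the other cultivar alone. These counts therefore do not weigh single libraries. The members were chosen on the same contrast, so their calls are no separate support. Their log2 fold changes ran from 1.82 to 4.32 with a median of 2.39, beside a median of 0.00 over all tested genes, and their standard errors had a median of 0.28. With at least 10 counts in every library, 1256 genes were called higher in D91, so the members were a small, steep part of those genes.

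Features that the rule does not name were compared between the members, the 13714 genes and the 147 genes of the exchanged rule. Only 1 isoform was assembled for 81 members, and 37 members (31.4%) had 2 or more, at most 6. The share with 2 or more was 40.3% among the 13714 genes and 29.9% among the 147 genes. Relative transcript length, taken as counts per unit of TMM-scaled TPM and set against the median of the 13714 genes, had a median of 0.83 in the members (quartiles 0.51 and 1.25). It was 1.01 over the 13714 genes (0.63 and 1.48) and 0.86 in the 147 genes (0.56 and 1.36). Members were thus somewhat shorter and less often split into isoforms than the 13714 genes, to a degree close to that of the genes higher in GP. These differences are given without a test, and the count minimum and the ratio of the rule may bear on them.

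The 37 members with several isoforms had 93 isoforms in all. In 35 of them the same isoform led in both cultivars, and the leading isoform held a median of 88.5% of the gene's counts and over 90% in 16 genes. Both D91 libraries lay above both GP libraries for 61 of the 93 isoforms, as they did for 18.4% of the 16342 isoforms of all genes with several isoforms and at least 10 counts in every library, and every isoform did so in 12 members. The members were chosen for such a separation of their totals, so nothing is read from this share or from the 12 members. For 3 isoforms, in 3 genes, both GP libraries lay above both D91 libraries, and 1 of these had at least 10 counts in both GP libraries. The share of all isoforms that lay this way was not counted, so nothing is read from these 3 either. When only isoforms counted in all 4 libraries were summed, 33 of the 37 genes kept a ratio of at least 3. The lowest ratio on those isoforms was 0.197, in a gene where the isoform leading in D91 had no count in GP replicate 2 (98.6 and 242 counts for D91, 24.5 and 0 for GP) and the other isoform had 14.4 and 12.9 counts for D91 and 13.5 and 33.0 for GP. The rule sets the gene total, and a leading isoform that holds most of the counts follows it, so this count is a description.

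The relative use of isoforms within a gene was tested over the whole table, since the total of a gene does not set it. The rule still bears on which isoforms of members had enough counts, because members have more counts in D91 than in GP. By edgeR's gene-level test of isoform usage, 11.6% of 2175 genes (253) passed at a Benjamini-Hochberg adjusted p under 0.05. Of the members, 16 had enough counts in at least 2 isoforms to be tested, and 3 (18.8%) passed. The difference between these shares was not tested. In each member that passed, an isoform with no count in 1 cultivar entered the test through the other, so these calls are no separate support. The other 21 members with several isoforms were not tested because their minor isoforms fell under the filter. Without D91 replicate 1, 1 of 23 members tested passed (4.56% of all tested genes), and without D91 replicate 2, 1 of 20 passed (3.74% of all tested genes). The 2 printed genes were tested and did not pass, with adjusted p = 0.412 for TRINITY_GG_33644_c0_g1 and 0.632 for TRINITY_GG_10435_c0_g1 (edgeR), where the leading isoform held 99.7% in D91 and 99.5% in GP.

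In the member with the smallest adjusted p for isoform usage (0.00328), isoform 2 was at 0 in both D91 libraries and at 42.8 and 25.9 counts in GP. A count of 0 was read against a floor of 3 counts per library. Isoform 2 made up 51.0% and 31.9% of the gene in GP replicates 1 and 2, while isoform 3 made up 98.7% and 98.0% in D91 and 49.0% and 65.0% in GP. The whole gene stood at 205 and 321 CPM in D91 and at 46.0 and 46.6 CPM in GP. The shares of isoforms 2 and 3 therefore did not overlap between cultivars. Those of the minor isoform 1 did, at 1.30% and 1.98% in D91 and 0% and 3.025% in GP. Isoform 3 alone stood at 203 and 315 CPM in D91 and at 22.6 and 30.3 CPM in GP.

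The other 2 members that passed had an isoform counted in D91 and not in GP. In the second (adjusted p = 0.0144), isoform 1 took 28.9% and 20.1% of the gene in D91, with 79.9 and 116 counts, and had no count in GP. Its isoform 3 was present in both cultivars, at 112 and 133 CPM in D91 and 21.9 and 24.8 CPM in GP, so that the shared isoform alone was over 3 times higher in D91. In the third (adjusted p = 0.0472), isoform 4 took 11.1% and 16.4% in D91, with 17.0 and 54.2 counts, and had no count in GP. Its shared isoform 3 stood at 75.5 and 79.2 CPM in D91 and 24.7 and 21.3 CPM in GP. In GP the whole gene had only 40 and 43 counts for the second member and 47 and 40 for the third, so both absences rest on few counts. Estimated counts of isoforms share reads, so these shares are less certain than the gene totals.

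**Figure D3:**
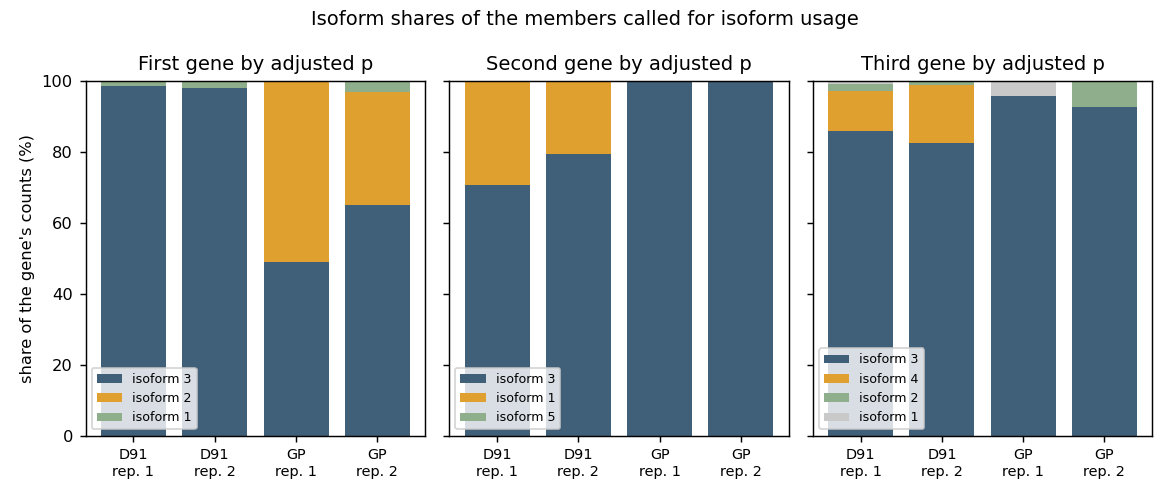
Share of each gene's counts taken by its isoforms (vertical axis, percent) in the 4 libraries, for the 3 members that passed the test of isoform usage, in order of adjusted p. Each bar is 1 library and each colour 1 isoform. In the first gene isoform 2 appears in the GP libraries only, at 51.0% and 31.9%, and in the second isoform 1 appears in the D91 libraries only, at 28.9% and 20.1%.

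The members lay at 116 numbered loci of the assembly, and 2 loci held 2 members each. At one of these, the members stood at 27.0 and 40.4 CPM and at 67.7 and 119 CPM in D91, against 8.77 and 8.06 CPM and 20.3 and 14.4 CPM in GP. At the other they stood at 25.8 and 27.0 CPM and at 21.2 and 32.8 CPM in D91, against 7.67 and 5.76 CPM and 6.58 and 5.76 CPM in GP. Genes under 1 locus number may be parts of 1 transcript, so such members need not be separate. A further 2 members at different loci had the same counts in all 4 libraries (426 and 342 for D91, 46 and 48 for GP). Near-identical copies that share reads would have such counts, and both genes are uncertain. Sharing all counts with another gene was not particular to the members, as 305 of the 13714 genes did so.

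The loci of members held 62 other assembled genes, while 73 of the 116 loci held none. Of the 62, 20 at 18 loci passed the filter of the edgeR test, and their log2 fold changes ran from -0.25 to 3.87 with a median of 1.59. Of the 20, 11 were called higher in D91, where 10.1% of all tested genes were, and the 2 genes with a fold change below 0 did not pass. For 12 of the 20 the count was under 10 in a GP library and in no D91 library. A filter passed through D91 favours genes higher in D91, without fixing the difference, so their calls are no separate support. Among these 12 were 9 of the 11 calls. Of the 8 with at least 10 counts in every library, 2 were called, where 9.16% of all such genes were, and their median log2 fold change was 0.50. Without GP replicate 1 the calls were 5 of 24, where 2.70% of all tested genes were called higher in D91, and without GP replicate 2 they were 2 of 25, where 1.54% were. Without D91 replicate 1 they were 17 of 24, where 18.3% were.

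Among the 8 genes with counts throughout, some had a smaller log2 fold change than the member at their locus. The members at the loci below had 3.25 (standard error 0.25) and 2.86 (standard error 0.35). Not passing the test does not show equal levels, and genes under 1 locus number need not be separate. At one locus the member was the fifth by ratio, while another gene stood at 8.03 and 9.004 CPM in D91 and at 12.0 and 9.79 CPM in GP, with a log2 fold change of -0.25 and a standard error of 0.35. Another gene of that locus stood at 66.5 and 99.9 CPM in D91 and at 8.77 and 4.61 CPM in GP, and fell short of the count minimum with 8 counts in GP replicate 2. At another locus a gene of 298 and 427 CPM in D91 and 291 and 298 CPM in GP lay beside a member and did not pass the test (edgeR log2 fold change 0.40, standard error 0.22).

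**Figure D4:**
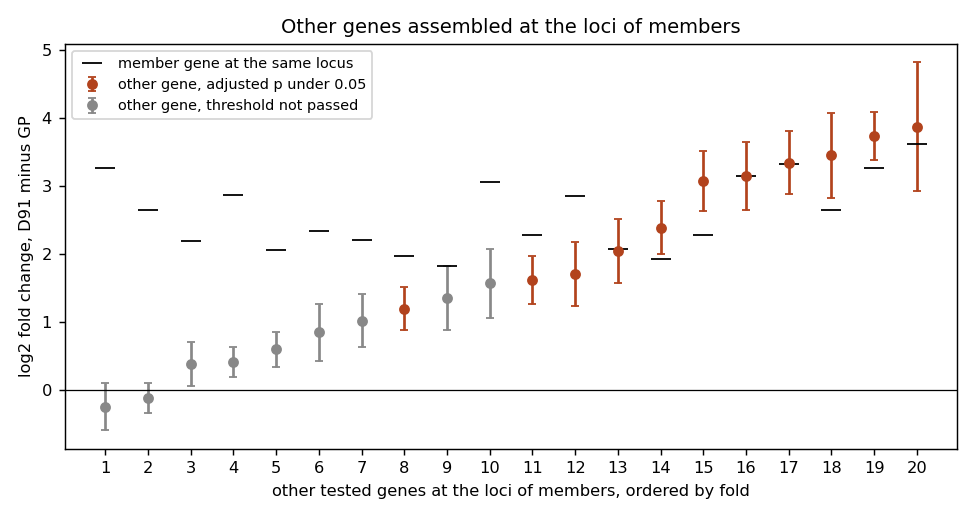
Log2 fold change (D91 minus GP, edgeR) of the 20 other tested genes at the loci of members, in order of size. Points are single genes with their standard error, coloured by whether the adjusted p was under 0.05, and short bars mark the member or members at the same locus. The genes run from -0.25 to 3.87, and 11 of 20 passed, all of them higher in D91.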

How the data were processed

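Per the labels' protocols, total RNA (1.5 µg) was column-purified with DNase digestion and made into libraries (SMARTER kit for mRNA). STAR, RSEM and DESeq2 appear in the submitters' processing notes, and genome build, filters and tool versions were not given in the sources used. The authors deposited expected counts per assembled isoform, and these estimated counts were here summed per gene and rounded. The deposited TMM tables hold an expression signal, TPM times 1 factor per library. The deposited gene table named as counts is in a fixed ratio to that signal and was not used. No unmapped column was present (0).

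The members and tests were chosen with earlier results of these data known. Genes were tested with edgeR 4.0.16 (R 4.3.3): TMM scaling, filterByExpr, a model of cultivar, glmQLFit, glmQLFTest and Benjamini-Hochberg adjustment. Isoform usage was tested with diffSpliceDGE (gene-level F test). Both tests were run on counts simulated from the means and dispersions of these data. The outcome is not given here, so nothing is drawn from it. The standard error was the size of the fold change over the root of F. With 2 libraries against 2, a permutation test of 1 value cannot go below p = 0.333. The identifiers printed were the member with the largest ratio and the member with the highest mean D91 CPM. Alternatives were other scalings, filters, rule settings, DESeq2 1.42.0, limma 3.58.1, a replicate block and leaving out each library. The genes at members' loci and another rounding were examined after seeing the data.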

Additional observations from a re-analysis of the deposited data

How the results depend on the processing

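The number of members followed the rule's settings. With a fold of at least 2 it was 441 and with at least 5 it was 23; with 1 count in every library it was 399 and with 30 counts 53; by the deposited TMM-scaled expression it was 180. TMM-scaled library sizes and RLE size factors each gave 156, and upward rounding of counts ending in 0.5 gave 119. Leaving out each library gave 186 to 266. In the gene test all 118 members passed under every scaling, filter and tool except limma-voom (116); leaving out each library gave 84 to 118, and the median log2 fold change stayed between 2.27 and 2.57. TRINITY_GG_33644_c0_g1 passed in 12 of 12 alternatives and TRINITY_GG_10435_c0_g1 in 11 of 12. Since the members were chosen on this contrast, these values do not test it. Other genes at members' loci called higher in D91 numbered 7 with no filter on low counts, 2 with at least 10 counts in all libraries, where 8 of them were tested, 6 in DESeq2 and 2 to 17 when each library was left out. With no filter, 62 of these other genes were tested, and 2.12% of all tested genes were called higher in D91. DESeq2 tested 27 of them and called 3.95% of all, and the minimum of 10 counts gave 8.95% of all. The share of all tested genes also moved when a library was left out, so these counts alone show no gain or loss. For isoform usage, 2 of 16 members tested were called with the Simes adjustment, where 8.46% of all tested genes were. With a minimum of 10 summed counts 2 of 32 were called, where 3.96% of all were. The replicate block left 0 of 16 (edgeR, 3 at an unadjusted p under 0.05), where 2 of all 2175 genes passed. The replicate numbers have no known pairing: deviations of same-numbered libraries correlated at r = 0.03 across genes, with 2 pairs. The block left all 118 gene-level calls. Except for the settings that enter the rule, the cause was not tested. Depth limits mainly the GP values, with a median lowest count of 25.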
